A study of Mus musculus with 25 samples.

Results

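Complex I of the respiratory chain is built from subunits of the nuclear and of the mitochondrial genome, and the nuclear genes for its subunits were followed here in mouse white adipose tissue. They were chosen by symbol, among genes named Nduf followed by a, ab, b, c, s or v and a number, with Ndufa4 left out, and 35 of the 54752 genes counted are described. Of these, 6 encode core subunits and 29 encode accessory subunits, of which 9 belong to the matrix arm, 19 to the membrane arm and 1, Ndufab1, to both. RNA-seq was done on epididymal (eWAT) and inguinal (iWAT) fat of male C57BL/6NJ mice, as 1 library per mouse and depot, in 3 groups per depot. In eWAT these were 4 wild type (WT) mice on a normal chow diet (ND), 5 WT mice on a high-fat diet (HFD) and 5 Acod1-/- mice on HFD, and in iWAT 3, 5 and 3 mice. The HFD took 60% of its calories from fat and was started at 5 weeks of age. Tissue was labelled as taken after 16 weeks, apart from iWAT Acod1-/- libraries 2 and 3, which were labelled 17 and 18 weeks. Acod1 encodes the enzyme that makes itaconate in activated macrophages, the deletion is present in every cell of the mouse, and the WT mice were littermates of the Acod1-/- mice. Whether libraries of the 2 depots came from the same mice is not given.

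Complex I takes electrons from NADH, passes them along a flavin and a chain of iron-sulfur clusters to ubiquinone, and pumps protons across the inner mitochondrial membrane. The core subunits hold the catalytic centres and are conserved from bacteria, and those of the nuclear genome all lie in the matrix arm, while the mitochondrial genome encodes the core of the membrane arm. Accessory subunits surround the core and are needed for assembly and stability. In white fat the respiratory chain supports lipid storage, and its subunits are more abundant in brown and beige adipocytes.

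Reads counted on genes numbered 31.41 M to 52.34 M per library. Mitochondrially encoded genes took 3.96% to 13.2% of them, with the highest share in eWAT Acod1-/- library 2. The 10 adipocyte markers chosen (Adipoq, Plin1, Lep, Fabp4, Cidec, Lipe, Pck1, Plin4, Slc2a4 and Retn) summed to 20500 to 54760 CPM (counts scaled to library size) in the 25 libraries, so all of them held adipocyte RNA. Acod1 itself had 0 to 9 reads per library and therefore does not check the genotype labels. Some libraries stood apart by markers of other tissues. Epididymis markers summed to 7851 CPM in eWAT WT ND library 2 and to 1047 CPM in eWAT Acod1-/- library 5, against at most 129.9 CPM in the other eWAT libraries. Skeletal muscle markers summed to 8647 CPM in iWAT WT ND library 1, against at most 511.6 CPM in the other iWAT libraries, and brown adipocyte markers to 1415 CPM in iWAT WT ND library 3, against 187 and 468 CPM in the other libraries of that group. The library numbers in the file headers form a lower run of 14 libraries and a higher run of 11, called series 1 and series 2 here, and it is not given whether these were prepared or sequenced apart. All ND libraries were in series 2, with only 1 library of each HFD group, so that diet and series nearly coincided.

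All 35 members were well above the limit of 1 CPM for testing in both depots. They were compared per length, as RPKM (CPM per kilobase of the transcript with the longest coding sequence, mean of the 6 group means). They spread from 2.14 for Ndufb2 to 467 for Ndufa3, with a median of 119, and without Ndufb2 the lowest was 47.2, for Ndufab1. The transcripts used for these 2 low genes were long, with 4371 bases for Ndufb2 and 3479 for Ndufab1, against a median of 875 over the members. Ndufa3, Ndufb3, Ndufa2 and Ndufa1, all small accessory subunits, were at the top with 467, 251, 249.7 and 221 RPKM. The 6 core subunits lay between 55.4 RPKM for Ndufs1 and 119 RPKM for Ndufs3. Ndufb2 was the only member with fewer than 1000 reads in every library (281 to 573), and it overlaps Gm42420 on the same strand, which was listed at 0 reads in all libraries. In all, 6 members overlap another gene on the same strand and 14 on the opposite strand, and it is not given whether the counting used strand. Ndufb1 is listed as Ndufb1-ps, which the symbol rule does not take, and it stood at 83.9 to 245 CPM. The members together made up 0.292% to 0.554% of each library.

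The promoters of the members are shown for 4 genes on which the results below turn, of 32 members matched in the RefSeq promoter table (GRCm38.p6, 250 bases before to 50 after each start; Ndufa2, Ndufb9 and Ndufs1 were not matched). Ndufv1 and Ndufb8 were among the members lower on HFD in eWAT, and Ndufa11 and Ndufb4 were the accessory members with the largest rise. Each line gives the bases before the start that no annotated exon covers (GENCODE vM21, either strand; for Ndufa11 the stretch nearest to the start), 5′ to 3′ on the strand of the gene. Capitals mark the motif of NRF1, a transcription factor of many nuclear genes for mitochondrial proteins, searched as GCGCATGCG on both strands, whose 2 strand matches overlap in Ndufa11.
Ndufv1, chr19:4012807-4013005, minus strand: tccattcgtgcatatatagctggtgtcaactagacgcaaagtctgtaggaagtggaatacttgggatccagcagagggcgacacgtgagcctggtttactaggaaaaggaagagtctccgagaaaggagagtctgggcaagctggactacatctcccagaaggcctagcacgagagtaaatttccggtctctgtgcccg
Ndufb8, chr19:44555443-44555692, minus strand: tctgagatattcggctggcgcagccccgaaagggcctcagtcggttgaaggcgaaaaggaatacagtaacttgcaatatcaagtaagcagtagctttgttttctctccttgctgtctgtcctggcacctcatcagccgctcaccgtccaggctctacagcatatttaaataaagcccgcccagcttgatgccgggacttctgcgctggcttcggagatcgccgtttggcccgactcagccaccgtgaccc
Ndufa11, chr17:56717686-56717761, plus strand: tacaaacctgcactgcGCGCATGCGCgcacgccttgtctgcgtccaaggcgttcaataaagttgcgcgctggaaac
Ndufb4, chr16:37654454-37654618, minus strand: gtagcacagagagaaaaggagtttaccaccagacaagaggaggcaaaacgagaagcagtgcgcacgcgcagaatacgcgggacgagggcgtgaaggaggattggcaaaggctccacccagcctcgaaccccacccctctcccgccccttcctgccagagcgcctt

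The motif GCGCATGCG occurred in 2 of 32 member promoters (6.25%), those of Ndufa8 and Ndufa11, against 1.95% of 27025 genes with a promoter and 3.77% of the 11091 of them that were tested. The ETS family motif CCGGAAGT was found in 1 (3.12%), Ndufs3, against 4.31% and 8.41%, and TCAAGGTCA, the motif of the estrogen-related receptors, in 0, against 0.466% and 0.361%. The YY1 motif AAGATGGC was the most frequent, in 7 of 32 (21.9%) against 3.19% and 4.95%. In all 7 it lay on the strand of the gene, 23 to 39 bases after the start, and its ATG was the annotated start codon. The shares of other genes were not limited to genes whose start codon lies this near the start, so they are not like for like. The sites are given with up to 8 bases on either side, and capitals mark the motif.
Ndufs7, chr10:80249465-80249488, plus strand: ccgaggccAAGATGGCggcgctgg
Ndufb8, chr19:44555393-44555412, minus strand: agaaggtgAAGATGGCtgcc
Ndufa3, chr7:3617387-3617410, plus strand: ccaagaacAAGATGGCcgggagta
Ndufa9, chr6:126849100-126849123, minus strand: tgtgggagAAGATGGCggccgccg
Ndufc1, chr3:51408918-51408941, minus strand: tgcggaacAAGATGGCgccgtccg
Ndufs4, chr13:114388045-114388067, minus strand: cctacaggAAGATGGCggcggtc
Ndufs6, chr13:73328434-73328457, minus strand: tcaccggcAAGATGGCggcggtgc

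These 7 genes took different directions in the comparisons that follow. In eWAT of WT mice, Ndufb8 fell on HFD, Ndufc1 and Ndufs4 rose, and Ndufa3, Ndufa9, Ndufs6 and Ndufs7 did not pass the test.

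In eWAT of WT mice, HFD was accompanied by lower mRNA of 2 of the 6 core subunits and higher mRNA of 9 of the 29 accessory subunits. Ndufs1, Ndufv1 and the accessory Ndufb8 fell, and Ndufa11, Ndufb4, Ndufa2, Ndufc1, Ndufa8, Ndufb3, Ndufa13, Ndufs4 and Ndufb6 rose (edgeR quasi-likelihood test, Benjamini-Hochberg adjusted p under 0.1). The 12 members called, of 35, stand beside 51.8% of all 14936 genes tested in this comparison, with 24.8% higher and 26.9% lower. The share of members called was thus below that of all genes. The log2 fold change was above 0 in 30 of 35 members, against 47.7% of all genes, and its median was 0.31 over the members, 0.06 over core subunits, 0.39 over accessory subunits and -0.04 over all genes. The share of counts on the members was 0.326% ± 0.0258 (SD, n = 4) on ND and 0.368% ± 0.0491 (n = 5) on HFD, and the groups overlapped.

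Ndufs1 (chr1:63143596-63176833 in GRCm38, minus strand), the largest core subunit and the carrier of several iron-sulfur clusters, had 129.5, 128, 167 and 196 CPM in the ND libraries and 75.5, 105, 90.9, 90.8 and 85.3 CPM in the WT HFD libraries. The HFD values all lay under the ND values. The log2 fold change was -0.79 ± 0.14 (SE), with an adjusted p of 0.000894 in edgeR's quasi-likelihood test. The gene overlaps Eef1b2 and Ino80dos on the opposite strand. Ndufv1 (chr19:4007384-4012806, minus strand), which binds the flavin and NADH, had 147, 151, 175 and 204 CPM on ND and 86.8, 124, 130.0, 150.2 and 133 CPM on HFD. HFD library 4 lay within the ND range and the others at or below 133.3 CPM, and the log2 fold change was -0.44 ± 0.15 (edgeR, adjusted p = 0.0343).

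The accessory Ndufb8 (chr19:44548572-44555440, minus strand), a membrane arm subunit often used as the protein marker of complex I, had 73.9, 81.3, 102 and 102 CPM on ND and 58.0, 61.8, 70.2, 82.4 and 72.3 CPM on HFD. HFD library 4 alone exceeded ND libraries, and the log2 fold change was -0.38 ± 0.16 (edgeR, adjusted p = 0.0723).

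The other core subunits did not pass the test in edgeR on HFD in eWAT, while DESeq2 called Ndufs8 higher. Ndufs3, of the ubiquinone-reducing module, had 83.5, 91.6, 118 and 111 CPM on ND and 86.5, 88.3, 114, 111 and 125 CPM on HFD, and Ndufv2, an iron-sulfur protein beside Ndufv1, had 125, 144, 169 and 170.2 and 154, 128, 168, 179 and 159 CPM. Both groups covered much the same range in each gene, with log2 fold changes of 0.06 ± 0.19 and 0.05 ± 0.18. Ndufs7, which holds the last iron-sulfur cluster before ubiquinone, had 44.5, 46.9, 59.9 and 55.1 CPM on ND and 47.6, 49.1, 61.6, 69.2 and 66.1 CPM on HFD (0.19 ± 0.17). Ndufs8, another iron-sulfur protein, had 43.04, 45.4, 47.8 and 54.8 CPM on ND and 53.8, 56.2, 66.3, 79.8 and 72.1 CPM on HFD. In Ndufs8 the HFD libraries were higher with a small overlap, and its log2 fold change of 0.46 ± 0.23 missed the threshold (edgeR, adjusted p = 0.115).

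Among accessory subunits, Ndufa11 (chr17:56717767-56722141, plus strand), a membrane arm subunit whose gene overlaps Vmac on the opposite strand, had 31.1, 32.7, 40.6 and 36.4 CPM on ND and 46.02, 45.3, 69.6, 78.04 and 72.7 CPM on HFD. All HFD libraries were above all ND libraries, with a log2 fold change of 0.82 ± 0.25 (edgeR, adjusted p = 0.0175). Ndufb4 (chr16:37647170-37654453, minus strand), of the distal membrane arm, had 44.9, 38.96, 55.2 and 48.4 CPM on ND and 63.4, 52.4, 97.8, 83.4 and 99.6 CPM on HFD. Only HFD library 2 lay within the ND range, and the change was 0.76 ± 0.24 (edgeR, adjusted p = 0.0198). Ndufa2, a matrix arm subunit with a thioredoxin fold, had 83.8, 88.0, 116 and 107 CPM on ND and 117, 107, 194, 202 and 168 CPM on HFD, with HFD libraries 1 and 2 close to the top of the ND range and the other 3 well above it (0.68 ± 0.25, edgeR, adjusted p = 0.0408). The other 6 that rose did so by 0.40 to 0.65. HFD and ND groups did not overlap in 2 of the 35 members with higher and in 1 with lower values on HFD, against 17.2% and 17.9% of all genes.

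**Figure D1:**
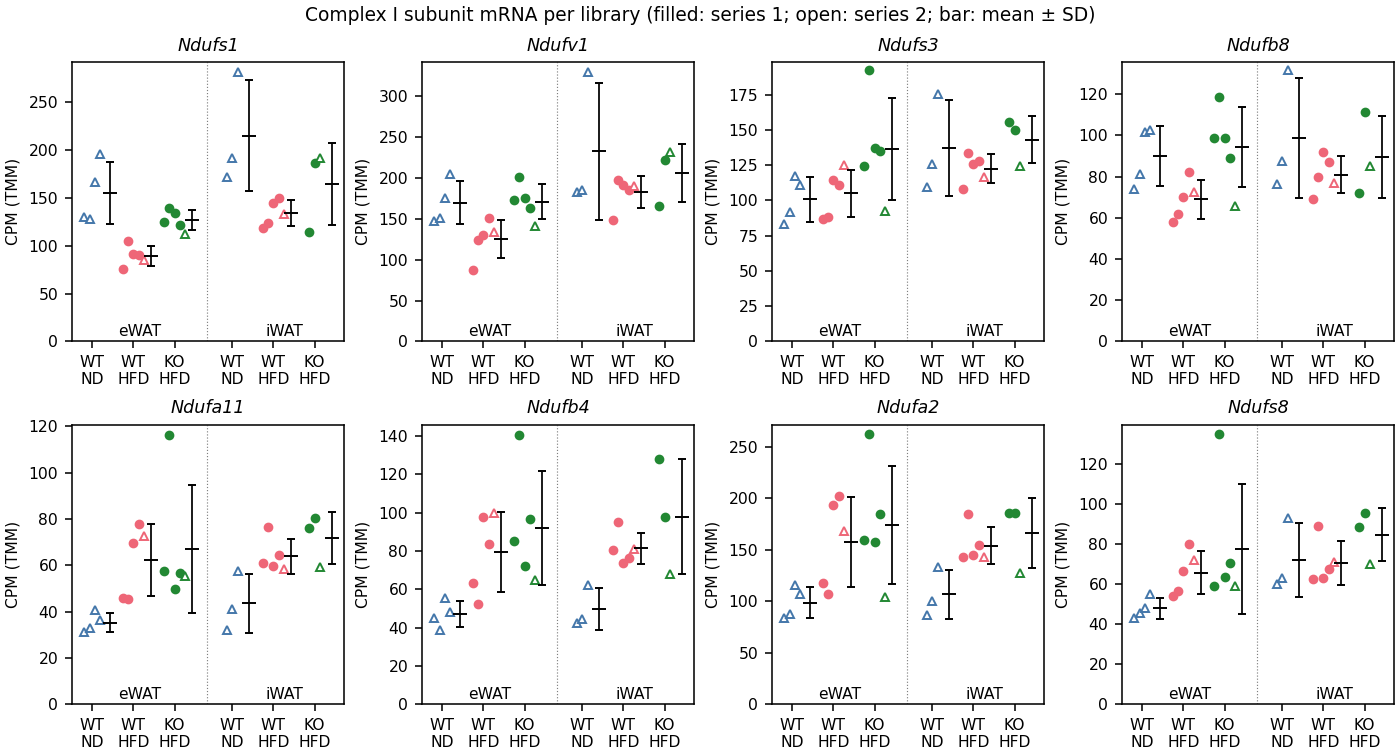
CPM after TMM normalization (y axis, linear from 0) of 8 members in the libraries of each group (x axis; eWAT left, iWAT right of the dotted line; WT ND blue, WT HFD red, Acod1-/- HFD green). Filled circles are libraries of series 1, open triangles those of series 2, and the black bars give the mean and SD. Ndufs1 on HFD in eWAT WT mice lies at 75.5 to 104.7 CPM, below all ND libraries (128 to 196 CPM), while Ndufa11 and Ndufb4 are mostly higher on HFD.

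These diet results moved with the series and with markers of other cell types. WT HFD library 5, the only one of its group in series 2, lay above the range of the ND libraries in 28 of the 35 members, below it in 3 and within it in 4. This was not counted over all genes, so it is not shown to be particular to the members. With series as a term in the fit, 1 member was higher and 2 were lower. Macrophage markers were higher on HFD in 10 of 10 genes (median log2 fold change 3.08, summed level 476 to 981 CPM on ND and 2372 to 7949 CPM on HFD), and adipocyte markers were lower in 6 of 10 and higher in 1, Lep (summed level 26560 to 40200 and 20500 to 45440 CPM). Their part in the member results was not tested. In whole tissue, fewer adipocytes and less of an mRNA per adipocyte cannot be told apart. Single libraries also changed the count. The share of all genes called is not given for these fits, nor for the fit with series as a term. Without ND library 1, 2 members were higher and 3 lower, without ND library 2, the one with epididymis RNA, 4 and 3, and without ND library 4, 7 and 1. Without WT HFD library 3, 4 or 5, these counts were 4 and 2, 4 and 3, and 3 and 3. Without Acod1-/- library 2, which is in neither group of this comparison but shares its fit, 17 were higher and 3 lower.

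Between HFD-fed Acod1-/- and HFD-fed WT mice, all 35 members had a log2 fold change above 0 in eWAT, against 55.1% of all genes, and 3 rose. The 3 were the core subunits Ndufs1 and Ndufv1 and the accessory Ndufb8. This comparison called 19.9% of all 14936 genes, 9.13% higher and 10.8% lower, so the 3 of 35 members were close to the share of genes called higher, and 0 were lower. The median log2 fold change was 0.27 over members, 0.35 over core subunits, 0.25 over accessory subunits and 0.04 over all genes. The members took 0.423% ± 0.0846 (SD, n = 5) of the counts in Acod1-/- and 0.368% ± 0.0491 (n = 5) in WT libraries, and the groups overlapped.

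Ndufs1 had 125, 139, 134, 122 and 113 CPM in the Acod1-/- libraries. All 5 were above all WT HFD libraries. Its log2 fold change was 0.50 ± 0.13 (edgeR, adjusted p = 0.0258). It was the only member without overlap between the groups, against 2.77% of all genes that were higher without overlap. Ndufv1 had 173, 201, 176, 163 and 141 CPM, and WT HFD library 4 reached into this range (0.45 ± 0.15, edgeR, adjusted p = 0.0595). Ndufb8 had 98.9, 119, 98.8, 89.1 and 65.6 CPM, and library 5 was the lowest (0.45 ± 0.15, edgeR, adjusted p = 0.0713).

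Side by side, the diet and genotype log2 fold changes were -0.79 and 0.50 for Ndufs1, -0.44 and 0.45 for Ndufv1, and -0.38 and 0.45 for Ndufb8. They were 0.82 and 0.11 for Ndufa11, 0.76 and 0.21 for Ndufb4, and 0.68 and 0.14 for Ndufa2, none of which passed the test of genotype. Both comparisons use the WT HFD libraries, so that their values are not independent of each other. Ndufs1, Ndufv1 and Ndufb8 passed both tests, as did 6.68% of all genes in the same directions. The core subunits that did not pass had genotype changes of 0.38 ± 0.18 for Ndufs3, 0.33 ± 0.17 for Ndufv2, 0.33 ± 0.16 for Ndufs7 and 0.24 ± 0.21 for Ndufs8. Acod1-/- library 2 was the highest of its group in all 35 members. It had 192 CPM of Ndufs3, against 92.7 to 136.9 CPM in the other 4, and 96.8 CPM of Ndufs7, against 50.7 to 74.9 CPM.

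The genotype result rested on few libraries. Without Acod1-/- library 2, which had the highest share of mitochondrially encoded reads, Ndufs1 alone was called, 28 of 35 log2 fold changes were above 0 and their median was 0.11. Without Acod1-/- library 5, which held epididymis RNA and the highest macrophage level of its group (2058 CPM, the others 475 to 813 CPM), 11 members were called, all higher, beside 13.5% of all genes. Leaving out WT HFD library 1 or 2, or Acod1-/- library 1 or 3, left 1 member called, and leaving out WT HFD library 3 or Acod1-/- library 4 left 2. The share of all genes called in these last fits is not given. Macrophage markers were lower in Acod1-/- mice in 10 of 10 genes (summed level 475 to 2058 CPM, against 2372 to 7949 CPM in WT), and adipocyte markers were higher in 7 of 10 (37510 to 50020 against 20500 to 45440 CPM). Their part in the higher member levels was not tested. With the HFD libraries of series 1 alone, 8 members were higher, beside 11.1% of all genes.

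**Figure D2:**
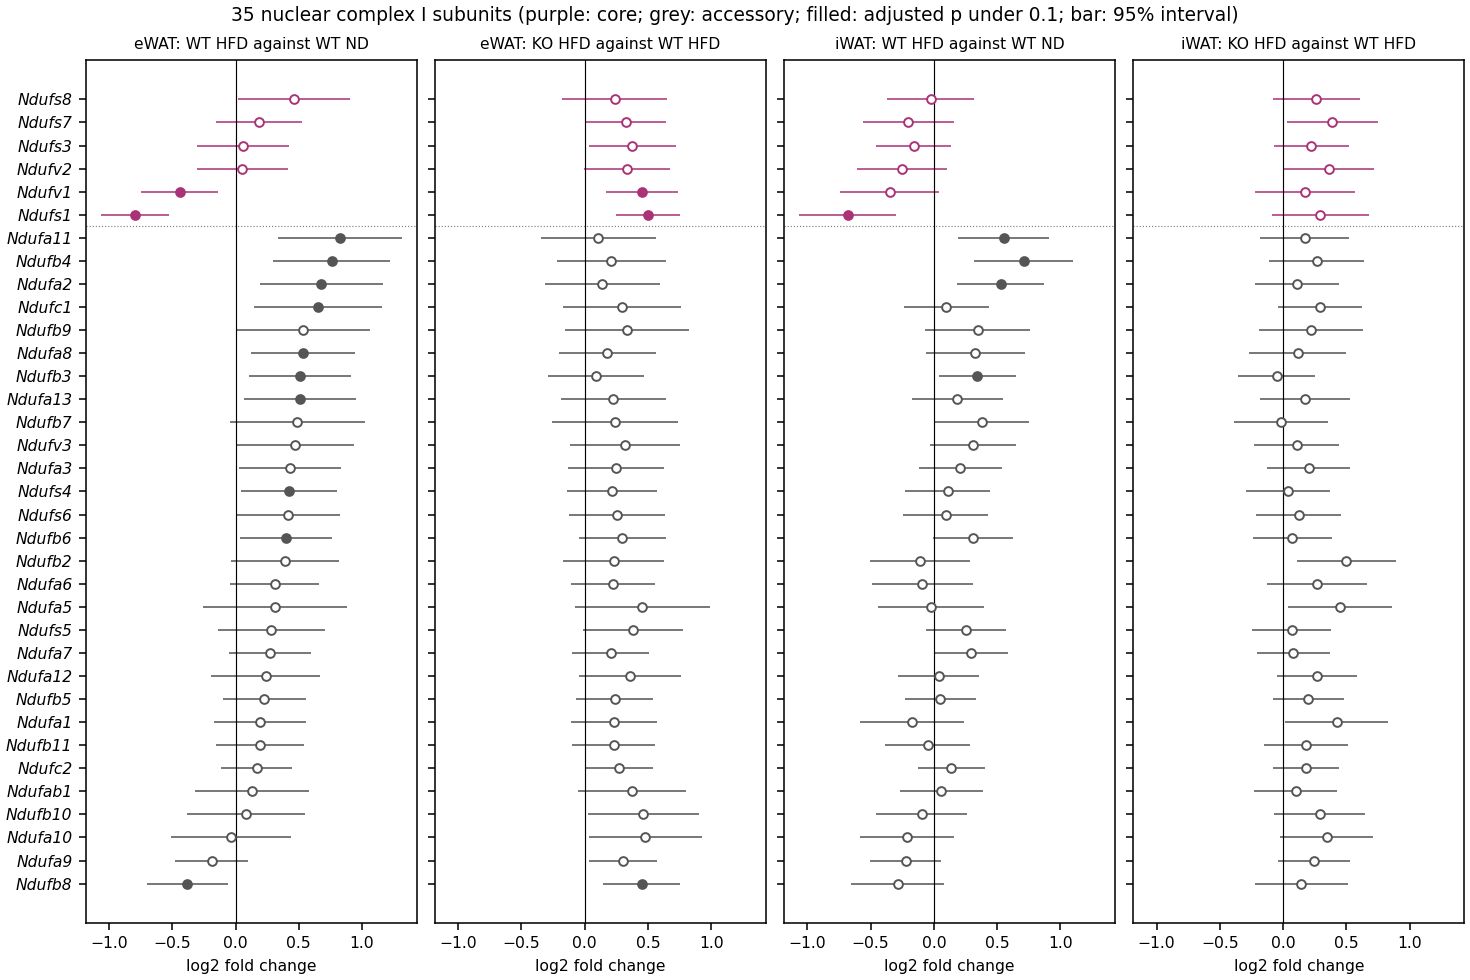
Log2 fold change (x axis) of each of the 35 members (y axis; core subunits above the dotted line, in purple, accessory ones in grey) in the 4 comparisons within a depot, with 95% intervals. Filled points passed an adjusted p under 0.1: 9 higher and 3 lower for diet in eWAT, 3 higher for genotype in eWAT, 4 higher and 1 lower for diet in iWAT, and 0 for genotype in iWAT.

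The mean balance between core and accessory subunits separated the diets in both depots, though the core subunits did not move alike. It was computed per library as the mean log2(CPM + 1) of the 6 core subunits minus that of the 29 accessory subunits. In eWAT it was 0.39, 0.36, 0.35 and 0.47 in the ND libraries, 0.08, 0.18, -0.11, -0.07 and -0.11 in the WT HFD libraries, and 0.09, -0.07, 0.22, 0.05 and 0.14 in the Acod1-/- libraries. All HFD libraries of either genotype were below all ND libraries, whereas the 2 HFD groups overlapped. In iWAT it was 0.59, 0.47 and 0.61 on ND, 0.08, 0.10, 0.19, 0.16 and 0.20 in WT mice on HFD, and 0.06, 0.26 and 0.39 in Acod1-/- mice, in the same order of groups.

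The difference between diets in WT mice was -0.40 in eWAT (-0.00592 ± 0.131 on HFD, n = 5, against 0.393 ± 0.0572 on ND, n = 4) and -0.41 in iWAT (0.144 ± 0.0521, n = 5, against 0.557 ± 0.0733, n = 3), several times the pooled SD of 0.106 and 0.0600. Between genotypes it was 0.10 in eWAT and 0.09 in iWAT, less than the pooled SD of 0.120 and 0.107. The WT HFD libraries of series 2 had -0.11 in eWAT and 0.20 in iWAT, the latter the highest of its group, and those of Acod1-/- mice had 0.14 and 0.39, the latter again the highest of its group and the nearest to the ND libraries. As a score over chosen genes it was given no test. In eWAT the diet changes of single core subunits ran from -0.79 to 0.46, with 4 above 0 and 2, Ndufs1 and Ndufv1, below 0. In iWAT all 6 were below 0, from -0.68 to -0.03. The score was not computed without Ndufs1 and Ndufv1, nor with the trend by cDNA length removed. In counts, core subunits took 20.8% to 22.5% of the reads on members on ND and 15.4% to 18.4% in WT mice on HFD in eWAT, and 21.9% to 23.9% and 17.35% to 18.7% in iWAT.

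**Figure D3:**
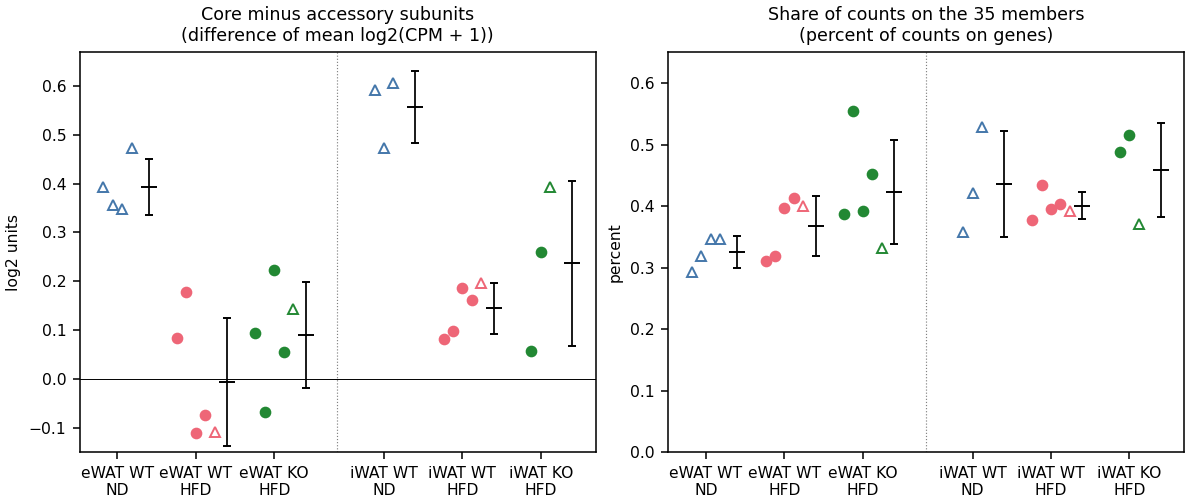
Left, difference between the mean log2(CPM + 1) of core and of accessory subunits in each library, and right, percent of counts on the 35 members, by group (x axis). Symbols and bars are those of the plot of single members (filled circles series 1, open triangles series 2, mean and SD in black). ND libraries lie at 0.35 to 0.61 on the left and HFD libraries at -0.11 to 0.39, without overlap within a depot, while the shares on the right overlap between all groups of a depot.

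In iWAT of WT mice, 1 core subunit fell on HFD and 4 accessory subunits rose. Ndufs1 was lower and Ndufb4, Ndufa11, Ndufa2 and Ndufb3 higher, beside 50.1% of all 14801 genes called (25.9% higher, 24.2% lower). All 6 core subunits had a log2 fold change below 0, against 49.7% of all genes (median -0.23), accessory subunits had a median of 0.11, and the medians over members and all genes were 0.06 and 0.00. The share of counts on the members was 0.436% ± 0.0858 (SD, n = 3) on ND and 0.401% ± 0.0215 (n = 5) on HFD, and the groups overlapped.

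Ndufs1 had 172, 192 and 281 CPM on ND and 119, 124, 144, 150.2 and 133 CPM on HFD. All HFD libraries were below all ND libraries, against 22.7% of all genes, and the log2 fold change was -0.68 ± 0.19 (edgeR, adjusted p = 0.0164). Ndufv1 had 183, 185 and 329 CPM on ND, with library 3 far above the other two, and 148, 197, 192, 185 and 190.0 CPM on HFD, and its change of -0.35 ± 0.20 missed the threshold (edgeR, adjusted p = 0.182). Ndufb8 had 76.6, 87.6 and 132 CPM on ND and 69.3, 80.0, 91.7, 87.3 and 76.7 CPM on HFD, which overlapped (-0.29 ± 0.19, edgeR, adjusted p = 0.242). The changes of the other core subunits were -0.16 ± 0.15 for Ndufs3, -0.25 ± 0.18 for Ndufv2, -0.20 ± 0.18 for Ndufs7 and -0.03 ± 0.18 for Ndufs8.

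Of the accessory subunits, Ndufb4 had 42.4, 44.4 and 62.2 CPM on ND and 80.6, 95.1, 73.9, 76.0 and 80.7 CPM on HFD in iWAT. Ndufa11 had 32.1, 41.1 and 57.4 and 60.8, 76.5, 59.5, 64.2 and 58.2 CPM, and Ndufa2 had 87.0, 99.99 and 133 and 143, 185, 145, 154 and 143 CPM. In each of these genes every HFD library exceeded every ND library, against 24.4% of all genes. The log2 fold changes were 0.71 ± 0.20, 0.55 ± 0.18 and 0.53 ± 0.17 (edgeR, adjusted p = 0.015, 0.0326 and 0.0315), beside 0.76 ± 0.24, 0.82 ± 0.25 and 0.68 ± 0.25 in eWAT. Ndufb3 was higher by 0.34 ± 0.16 (edgeR, adjusted p = 0.0988).

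The iWAT diet result depended on the ND libraries. The share of all genes called in the fits of this paragraph is not given, so a general shift in calls is not set apart here. Without ND library 3, which held the most brown adipocyte RNA and the highest member share (0.528%), 10 members were higher and 1, Ndufs1, lower, and 28 of 35 log2 fold changes were above 0, against 20 of 35 members and 50.3% of all genes with all libraries. Without ND library 1, with muscle RNA, 1 was higher and 3 lower, and without ND library 2, 1 was higher and 1 lower. With series as a term edgeR called 0 members, and 0 had an unadjusted p under 0.05. WT HFD library 5, of the same series as the ND libraries, was above their range in 3 of the 35 members, below it in 1 and within it in 31, which was likewise not counted over all genes. On HFD, brown adipocyte markers were lower in 5 of 8 genes (summed level 187 to 1415 CPM on ND, 69.8 to 123 CPM on HFD), skeletal muscle markers in 7 of 8 and macrophage markers higher in 7 of 10 (467 to 551 and 620 to 1618 CPM). Their part in the member results was not tested.

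No member was called between HFD-fed Acod1-/- and HFD-fed WT mice in iWAT, nor was any of the 14801 genes (0%). At an unadjusted p under 0.05, edgeR gave 1 member, Ndufb2, and 16.7% of all genes, and DESeq2 called 0 members as well. Log2 fold changes were above 0 in 33 of 35 members, against 47.9% of all genes, with medians of 0.20 over members, 0.28 over core subunits, 0.18 over accessory subunits and -0.01 over all genes. Ndufs1 had 114, 187 and 192 CPM in the Acod1-/- libraries, 1 below and 2 above the WT HFD values (0.29 ± 0.20). Ndufv1 had 165, 222 and 231 CPM and Ndufb8 72.0, 111 and 85.3 CPM, of which 1 lay within the WT HFD range for Ndufv1 and 2 for Ndufb8. Without Acod1-/- library 3, the one of series 2 and labelled 18 weeks, 9 members were higher, beside 9.43% of all genes, and with the HFD libraries of series 1 alone 12 were, beside 7.11%.

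Between the depots on ND, the log2 ratio of eWAT to iWAT was below 0 in all 35 members, against 48.1% of all genes, and 5 passed the test as lower in eWAT, the core subunits Ndufs7, Ndufs8, Ndufs1 and Ndufv1 and the accessory Ndufs4, a matrix arm subunit known from Leigh syndrome. In this fit of all 25 libraries 31.7% of 15034 genes were called, 14.2% lower in eWAT, so that the 5 of 35 members called were at the share of all genes. With no filter on low counts 2 members were called. The log2 differences (eWAT over iWAT) of the 5 ran from -0.45 ± 0.19 for Ndufv1 to -0.60 ± 0.20 for Ndufs7, and the median over members was -0.37. Ndufs4 had a difference of -0.58 ± 0.21 (edgeR, adjusted p = 0.0467), from group means of 77.3 CPM in eWAT and 115 CPM in iWAT. The result rested on iWAT library 3. Without it, 0 members were called, 4 of 35 differences were above 0 and the median was -0.14. Without eWAT ND library 1 or 2, 1 member was called, without iWAT library 1, 14 were, without eWAT Acod1-/- library 2, 10, and without eWAT WT HFD library 1 or Acod1-/- library 5, 8. The share of all genes called with a library left out is not given here. iWAT library 3, with the most brown adipocyte RNA, was the highest of its group in 34 of the 35 members. Markers of other cells differed between these groups as well. In eWAT on ND, skeletal muscle markers were lower in 8 of 8 genes (summed level 11.8 to 37.1 CPM in eWAT and 6.39 to 8647 CPM in iWAT), brown adipocyte markers in 7 of 8 (18.6 to 45.5 and 187 to 1415 CPM) and B cell and lymph node markers in 5 of 6 (279 to 370.1 and 899 to 1253 CPM), and mesothelial markers were higher in 5 of 5. Their part in the depot ratios was not tested.

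**Figure D4:**
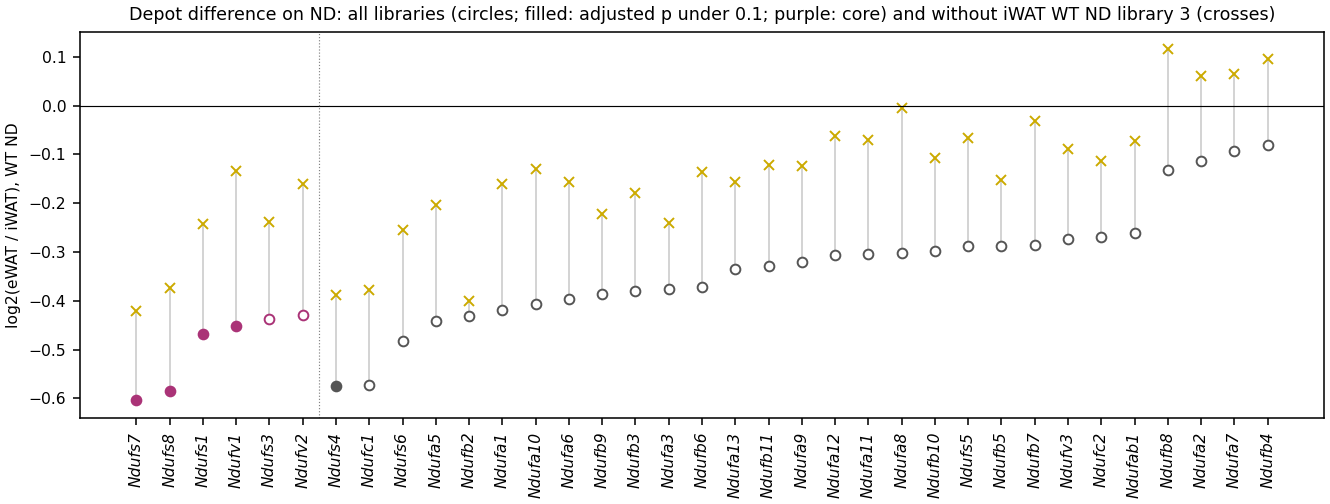
Log2 ratio of eWAT to iWAT on ND (y axis) for each member (x axis; core subunits left of the dotted line), with all libraries (circles, filled where the adjusted p was under 0.1) and without iWAT WT ND library 3 (crosses). All 35 circles lie below 0, with 5 filled, and 4 crosses lie above 0.

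In WT mice on HFD 2 members were lower in eWAT, beside 18.6% of all genes called and 7.75% called lower. These were Ndufs1 (-0.55 ± 0.15, edgeR, adjusted p = 0.0168), with group means of 89.8 and 132 CPM and no overlap (5.12% of all genes were lower without overlap), and Ndufv1 (-0.52 ± 0.16, edgeR, adjusted p = 0.0364), with 125 and 179 CPM. In the same comparison macrophage markers were higher in eWAT in 10 of 10 genes (summed level 2372 to 7949 CPM, against 620 to 1618 CPM in iWAT), adipocyte markers were lower in 5 of 10 (20500 to 45440 and 43500 to 54760 CPM) and skeletal muscle markers in 6 of 8, and their part was not tested. In Acod1-/- mice 0 members were called (1 at an unadjusted p under 0.05, as were 13.9% of all genes, and 0 by DESeq2), beside 3.81% of all genes. Without eWAT WT HFD library 1, 1 member was called in WT mice, and without iWAT Acod1-/- library 1, 1 was called in Acod1-/- mice. Tests of the difference between depots called 0 members for diet, beside 29% of all genes, and 0 for genotype, beside 0.00665%, and no member had an unadjusted p under 0.05 in either edgeR test, against 34.4% and 10.1% of all genes, nor a call by DESeq2. Without eWAT Acod1-/- library 2, 1 member was called in the test for diet. For Ndufs1, the diet changes of -0.79 in eWAT and -0.68 in iWAT were thus not shown to differ.

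By deposited cDNA length, members that fell on HFD tended to be longer than those that rose. The deposited cDNA lengths had a median of 2162.5 bases for core and 1251 bases for accessory subunits, with 8086 bases for Ndufs1, and 2521 for Ndufv1, against 1092 for Ndufa11 and 572 for Ndufa2. Across genes, which are not independent and share libraries, the log2 fold change of diet and cDNA length had a Spearman's rho of -0.40 over the 35 members in eWAT and -0.40 in iWAT, and of -0.94 and -0.83 over the 6 core subunits. Over all genes it was -0.18 and -0.05. Ndufb8, which fell in eWAT, had 3146 bases of cDNA, but 680 bases in the transcript with the longest coding sequence. By that transcript length, rho over the members was -0.32 in eWAT and -0.42 in iWAT. By cDNA length, the median change of all genes in eWAT fell from 0.39 under 1000 bases to -0.15 at 4 kb and over. In iWAT it was -0.13 in the shortest class and -0.04 in the longest. Genes of cytosolic ribosomal proteins, short and abundant, rose in 73 of 76 in eWAT (median 0.83) and in 4 of 78 in iWAT, where 21 fell (median -0.19).

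With the trend of each library with cDNA length removed, the diet comparison in eWAT called 2 members higher, Ndufa11 and Ndufb4, and 4 lower, the 3 above and Ndufa9, beside 23.6% of all genes higher and 22.8% lower, with a median of 0.10 over the members. The 3 members that fell were thus still called, and 7 of the 9 that rose were not. In iWAT, 5 were higher and 3 lower without the trend, beside 27.03% and 23.8% of all genes. For genotype in eWAT, rho was 0.34 over the members and -0.05 over all genes, and 3 members were higher with the trend removed, beside 9.95% of all genes.

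**Figure D5:**
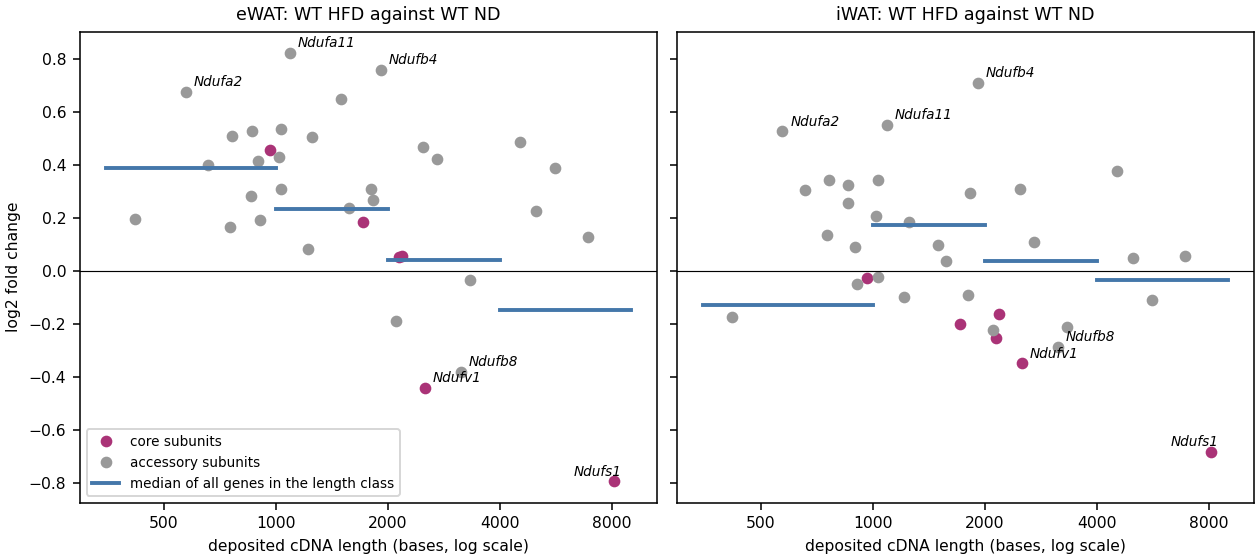
Log2 fold change between WT HFD and WT ND (y axis) against the deposited cDNA length (x axis, log scale) for core (purple) and accessory (grey) subunits in eWAT and iWAT. Blue lines give the median of all genes tested in each length class, from 0.39 to -0.15 in eWAT, and Ndufs1 is the lowest member in both depots at -0.79 and -0.68.

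The other parts of complex I were compared with fixed lists. Of the 7 mitochondrially encoded subunits, 2 fell on HFD in eWAT, mt-Nd5 (-0.76 ± 0.35, edgeR, adjusted p = 0.0936) and mt-Nd4l (-0.75 ± 0.34, 0.0866). In Acod1-/- mice all 7 had log2 fold changes above 0, from 0.43 to 0.97, and 0 passed, and in iWAT 0 passed in either comparison. Of 17 assembly factors, which are not part of the finished complex, 3 fell on HFD in eWAT, Tmem186 (-0.73 ± 0.13), Foxred1 (-0.55 ± 0.10) and Ndufaf7 (-0.35 ± 0.11), and 1, Tmem126a, rose (0.74 ± 0.18). In Acod1-/- mice 5 rose, among them Tmem186 (0.61 ± 0.12), Ndufaf1 (0.48 ± 0.15), Ndufaf7 (0.42 ± 0.10) and Foxred1 (0.39 ± 0.09). In iWAT 3 rose and 3 fell on HFD, with Tmem186 lower (-0.45 ± 0.12) and Tmem126a higher (0.56 ± 0.11) as in eWAT.

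Among the other complexes of the chain, complex III and ATP synthase had genes called in both directions on HFD in eWAT. Sdha, the flavoprotein of complex II, was the only 1 of 4 called (-0.82 ± 0.14), and by genotype it was higher (0.46 ± 0.13). Of 9 complex III genes, Uqcrc2 fell (-0.54 ± 0.15) and Uqcr10, Uqcr11 and Uqcrq, all small subunits, rose, and by genotype Uqcrc2 (0.48 ± 0.15) and Cyc1 (0.47 ± 0.17) were higher. Complex IV had log2 fold changes above 0 in 11 of 11, with 3 higher and 0 lower, and ATP synthase 6 of 15 higher and 1, the catalytic Atp5b, lower (-0.42 ± 0.17), with 0 called by genotype in either. In iWAT, Sdha (-0.74 ± 0.19), Sdhb (-0.56 ± 0.16) and Uqcrc2 (-0.66 ± 0.18) fell on HFD.

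Among 10 regulators of mitochondrial biogenesis, HFD in eWAT was accompanied by lower Ppargc1a (-0.64 ± 0.26, edgeR, adjusted p = 0.0622), a coactivator, and Tfb2m (-0.48 ± 0.12), a mitochondrial transcription factor, and by higher Esrra (0.53 ± 0.22), an estrogen-related receptor. Tfb2m was higher in Acod1-/- mice (0.47 ± 0.11), and Ppargc1a had 0.64 ± 0.25 and did not pass. In iWAT, Ppargc1a (-1.03 ± 0.27), Ppargc1b (-0.97 ± 0.41), Nrf1 (-0.75 ± 0.17) and Tfam (-0.45 ± 0.11) fell on HFD. Yy1, whose motif was the most frequent in the promoters, had changes of -0.02 ± 0.08 and -0.02 ± 0.09 on HFD in eWAT and iWAT.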

How the data were processed

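RNA-seq libraries of eWAT and iWAT were made by the authors from mRNA with a directional kit and sequenced on a NovaSeq instrument, and reads were trimmed with cutadapt, filtered for contaminants and aligned to GRCm38 with STAR. The authors deposited, per library, unnormalized counts of uniquely aligned reads per gene, with cDNA lengths and FPKM columns, which were not used beyond a check that they follow from the counts to within 0.0005. The counting program and its use of strand are not given in the sources used here. Reads on no feature (6.41% to 11.9%) and ambiguous reads (1.52% to 2.07%) stayed out of library sizes. A table of mouse gene names gave symbols for 54723 Ensembl IDs, and positions are those of GENCODE vM21.

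Counts were fitted in R 4.3.3 with edgeR 4.0.16 (TMM, quasi-likelihood test), with 1 fit of 3 groups per depot and 1 fit of all 25 libraries for depots and interactions. Genes were tested if they averaged 1 CPM or more, p was adjusted over all of them (Benjamini-Hochberg), and an adjusted p under 0.1 was called. CPM values in the text are per TMM-scaled library size of a depot. The group means given for members in the comparisons between depots are instead scaled over all 25 libraries. Errors of fold changes are standard errors. The p-values measure the spread between libraries, and those between depots treat every library as a separate mouse. DESeq2 1.42.0 was an alternative, beside filters, size factors, length trends, the series (lower or higher run of library numbers) as a term, a block for the library number and each library left out. The fits were tested on simulated data. No 2 libraries of a group agreed within sampling noise (lowest chi-square per degree of freedom 33.7). Values per library are given for the 6 core subunits described, for Ndufs1, Ndufv1 and Ndufb8, which the study names, and for up to 3 called accessory subunits per comparison and direction with the smallest adjusted p and a mean of at least 5 CPM. For Ndufs4 (depots) the group means are given instead. The members, lists, markers and motifs were chosen with earlier results of these data known. The length trend by coding transcript and the fit of series 2 alone were added after the data were seen. Pooled values over members got no test. Of the genes that the symbol rule takes, 1 is not reported here.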

Additional observations from a re-analysis of the deposited data

Results flagged for a closer look

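For 13 values in 4 groups each (52 groups), the lowest and highest library were compared with the others of the group by Dixon's ratio. The values were the 6 core subunits, Ndufa11, Ndufb4, Ndufa2, Ndufb8, Ndufs4, the member share of counts and the core minus accessory difference. Of the 52 groups, 4 exceeded the 95% critical value, where chance alone gives about 1 in 20 groups. In eWAT, Acod1-/- library 2 had 116 CPM of Ndufa11, against 49.9 to 57.4 CPM in the other 4 libraries, and 134.7 CPM of Ndufs8, against 58.9 to 70.2 CPM. In iWAT, WT HFD library 2 had 185 CPM of Ndufa2, against 143 to 154 CPM, and WT HFD library 1 had 148 CPM of Ndufv1, against 185 to 197 CPM.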

How the results depend on the processing

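For diet in eWAT 12 members were called, and the count was 17 by DESeq2, 18 when WT libraries alone were fitted, 8 with a replicate block (the library number as a term), 3 with the series as a term, 6 with the length trend removed by cDNA or by coding transcript, and 5 at an adjusted p under 0.05. For genotype in eWAT (3 called) it was 1 with no filter on low counts, 2 with the replicate block, 8 in series 1 alone and 1 at 0.05. For diet in iWAT (5) it was 3 with the replicate block, 0 with the series as a term, 8 with the cDNA length trend removed, 9 with the coding-transcript trend removed and 0 in series 2 alone, where eWAT had 10, both with 1 HFD library that is assumed to vary like the ND libraries. For genotype in iWAT (0) it was 12 in series 1 alone. For depots on ND (5) it was 8 by DESeq2, 8 with 1 CPM required in every library, 2 with no filter, 15 with the replicate block and 2 at 0.05, and for depots in WT mice on HFD (2) it was 4 with the length trend removed and 3 with the block. Members lower on HFD and higher by genotype in eWAT, 2 comparisons that share the WT HFD libraries, numbered 3, and 1 with no filter and 1 at 0.05. The cause of these shifts was not tested, and the share of all genes called in each fit is not given beside these counts. The member share in iWAT of WT mice on HFD was 0.401% of all counts and 0.429% without mitochondrially encoded genes.

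Leaving out each library in turn gave 5 to 20 members for diet and 1 to 11 for genotype in eWAT, 2 to 11 and 0 to 9 in iWAT, 0 to 14, 1 to 2 and 0 to 1 for the depots in WT ND, WT HFD and Acod1-/- mice, 0 to 1 and 0 for the differences between depots in diet and genotype, and 1 to 3 for members called in both eWAT comparisons. The core minus accessory difference by diet stayed between -0.44 and -0.37 in eWAT and between -0.45 and -0.39 in iWAT, and by genotype between 0.06 and 0.14 and between 0.01 and 0.18. Single calls were followed for core subunits and for up to 3 accessory subunits per comparison and direction with the smallest adjusted p. Of 544 alternatives for these 20 calls, 461 kept the call, 83 lost it and 0 changed its direction. The other calls of accessory subunits, with larger adjusted p, are not in these counts.

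Library numbers were not taken as pairing samples, because the labels do not say so. Deviations from group means correlated by 0.155 on average in pairs of the same number across depots (-0.15 to 0.597, 6 of 11 above 0.1). Within a depot, where the groups are different mice, the mean was 0.0508 (-0.262 to 0.303, 12 of 22 above 0.1). Whether libraries of the 2 depots share mice was not tested, and the tests between depots took them as separate. The fit of series 1 alone could not be run for members called in both eWAT comparisons, because that series holds no ND library. Depth did not limit the members, which had at least 281 reads in each library. Groups of 3 to 5 mice, ND libraries confined to series 2, other tissues in single libraries and overlapping genes counted without a stated strand limit what these comparisons show.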
